A study of Mus musculus with 33 samples.

Results

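The 6-week libraries described here are the 4 thymic epithelial libraries of adult mice that carry the genes of the thymic cortex, and they are set against embryonic thymic epithelium. They were chosen by their level of Prss16, and the 6-week cortical-marker libraries are those 6-week wild-type libraries in which Prss16, a thymus-specific serine protease of cortical epithelium, took more than 0.2% of all counted molecules. This rule found 4 of 20 6-week libraries, among 33 libraries in all, and they are the ones titled mTEC1, mTEC2, mTEC3 and mTEC4 under number 196. Embryonic TEC stands for the 4 libraries labelled only as thymic epithelial cells (TEC) of the embryo, 2 from embryonic day 15 (E15) and 2 from embryonic day 17 (E17). The lowest library inside the threshold held 0.345% Prss16 and the highest 6-week library outside it 0.0469%.

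TEC build the compartments in which T cells develop. Cortical TEC attract lymphoid progenitors with Ccl25 and Cxcl12, and commit them to the T lineage with Notch ligands such as Dll4. They select thymocytes on peptides cut by the thymoproteasome subunit Psmb11, the protease Prss16 and cathepsin L. The transcription factor Foxn1 switches this programme on in the embryo. The embryonic thymus grows fast, while the adult epithelium divides less and declines with age.

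Gene expression was measured by MARS-seq on bulk RNA, a 3'-end method in which each molecule is counted once through its unique molecular identifier (UMI). All mice were wild-type C57BL/6, aged 6 weeks on the adult side and E15 or E17 on the embryonic side, and the labels name no agent. The design text of the study also names Foxn1 EGFP mice, a reporter strain, and the labels tie none of these 8 libraries to it. Cells were released from the thymus with DNase and Liberase TH and then sorted, but the labels name no sorting markers and do not say whether animals were pooled. The 4 cortical-marker libraries held 217794 to 970628 UMIs and the embryonic libraries 1007370 to 1732688 UMIs. The scale of all levels is CPM, the UMIs of a gene among 1000000 UMIs of its library. Single values run in the order of the titles mTEC1, mTEC2, mTEC3 and mTEC4 for the 6-week cortical-marker libraries, and E15 library 1, E15 library 2, E17 library 1 and E17 library 2 for embryonic TEC.

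The titles and the markers of the 6-week libraries disagree. In this field mTEC stands for medullary TEC, yet all 4 libraries titled mTEC under number 196 carried cortical genes, while in the 4 libraries titled cTEC Prss16 ranged from 0.00357% to 0.0203%, which is below the threshold; 1 of those also has the number 196. The 4 chosen libraries share the number 196, and no label tells whether they are separate animals. The p-values below therefore reflect only how far these libraries differ among themselves, which may be technical. Chi-square per degree of freedom was 2.49 to 4.67 between pairs of chosen libraries, 6.56 for the E15 pair and 2.58 for the E17 pair, so all pairs differed by more than counting noise (1 per degree). Because the 6-week side was chosen for a cortical marker and the embryonic side was taken whole, age and cell population cannot be told apart in what follows.

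Cortical identity was present on both sides, with a lower level of Foxn1 at 6 weeks. These genes are given without a test, since Prss16 chose the libraries. Prss16 stood at 6477, 7642, 3453 and 7678 CPM in the 6-week cortical-marker libraries, against 3981, 5700.4, 5325 and 5079 CPM in embryonic TEC. Psmb11 stood at 192, 203, 115 and 238 CPM at 6 weeks, against 265, 326, 261 and 208 CPM in the embryo. Both genes overlap between the sides, and in the other 16 6-week libraries they reached at most 469 and 11.7 CPM. Foxn1 had 193, 206, 202 and 231 CPM in the 6-week cortical-marker libraries and 1065, 892, 736 and 547 CPM in embryonic TEC. Every 6-week library therefore lay below every embryonic one, and the embryonic mean was 3.89 times the 6-week mean. Unlike the 2 proteolytic genes, Foxn1 did not set these 4 libraries apart from the other 16 6-week libraries, in which it ranged from 10.1 to 313 CPM.

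Of the 17 listed cortical genes, 8 were higher at 6 weeks in every library, 2 were lower in every library (Foxn1 and Dll4) and 7 overlapped, beside 32.2% of all tested genes whose sides did not overlap. Cxcl12, a chemokine for early thymocytes, averaged 2136 ± 555 CPM in the 6-week cortical-marker libraries and 876 ± 199 CPM in embryonic TEC (SD, n = 4 each). Ackr4, an atypical receptor that takes up Ccl25 and Ccl21, averaged 726 ± 151 CPM against 164 ± 65.7 CPM, a 4.42-fold difference of the means. Cd83, which stabilises MHC class II on cortical TEC, averaged 628 ± 181 CPM against 243 ± 39.7 CPM, and Ctsl, the cathepsin that degrades the invariant chain, 104 ± 34.5 CPM against 26.8 ± 8.43 CPM. For these 4 genes the sides do not overlap. Tbata (6246 against 2715 CPM), the chemokine gene Ccl25 (3485 against 2208), the lipid transfer gene Pltp (2839.6 against 1826) and the stem cell factor gene Kitl (83.7 against 42.6) lie the same way without overlap. Dll4, the Notch ligand that commits progenitors to the T lineage, lies the other way, with 157, 147, 138 and 227 CPM at 6 weeks and 441, 374, 255 and 264 CPM in the embryo. Ly75 (305 against 234 CPM), Il7 (92.6 against 116), Enpep (50.9 against 45.7) and the keratins Krt8 (3150.2 against 4237) and Krt18 (6214 against 9029) overlap between the sides. The summed level of the 17 listed cortical genes ran from 23485.5 to 39202 CPM in the 6-week cortical-marker libraries and from 26298 to 30054 CPM in embryonic TEC.

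**Figure D1:**
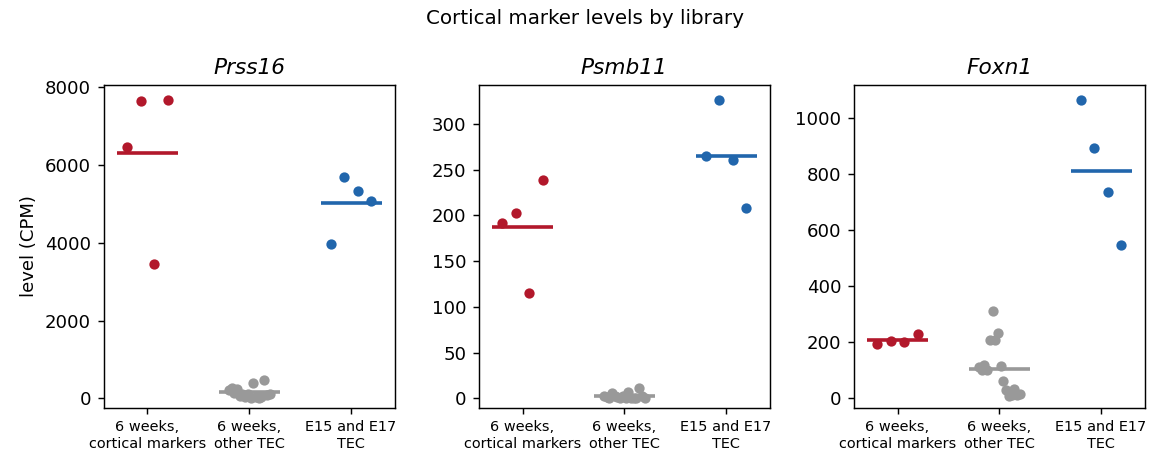
Levels of Prss16, Psmb11 and Foxn1 (vertical axis, CPM, linear) in each library of the 6-week cortical-marker group, the other 16 6-week TEC libraries and embryonic TEC; points are libraries and bars group means. Prss16 separates the 4 libraries from the other 6-week libraries by the rule that chose them. Psmb11 separates them too, whereas Foxn1 is highest in embryonic TEC, at 810.0 CPM on average.

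The promoter of Psmb11 is shown because Psmb11 is a known Foxn1 target whose level overlapped between the sides while Foxn1 did not. That overlap comes only from mTEC4, which lay above E17 library 2, and the other chosen libraries lay below every embryonic library. The sequence is the RefSeq promoter on GRCm38.p6 (chr14:54625060-54625359, plus strand), from 250 bases before to 50 bases after the start, with capitals at the 5 bases GACGC, the core motif bound by Foxn1, or its reverse complement.
Psmb11: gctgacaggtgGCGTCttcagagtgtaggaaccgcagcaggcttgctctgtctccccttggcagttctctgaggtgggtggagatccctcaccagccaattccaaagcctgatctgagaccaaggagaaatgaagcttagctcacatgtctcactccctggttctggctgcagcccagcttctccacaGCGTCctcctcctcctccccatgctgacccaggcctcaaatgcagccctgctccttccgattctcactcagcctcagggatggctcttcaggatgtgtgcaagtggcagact
The motif occurs 2 times in this window, on the other strand. Of the 17 listed cortical genes 14 had a RefSeq promoter, and 6 of these (42.9%) held GACGC on either strand, against 27.4% of 27025 promoters, 1 per gene.

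Across the transcriptome, adult cortical-marker TEC and embryonic TEC differed widely. By limma on log2(UMIs scaled to 570253 per library + 1), 1932 of 10407 tested genes (18.6%) were higher and 1394 (13.4%) lower in the 6-week cortical-marker libraries at a Benjamini-Hochberg adjusted p below 0.05. Differences of more than 1 log2 unit made up 1513 of the higher and 954 of the lower calls. Of the calls 2891 were genes whose 4 and 4 libraries did not overlap. In 2666 genes (25.6%), 2600 of them not called, the 95% interval lay within -1 to 1 log2 units, described here as kept within 2-fold. Among them were the epithelial adhesion genes Epcam (164 against 166 CPM) and Cdh1 (204 against 229 CPM), and 4481 genes were neither called nor kept. These shares, and the median difference of 0.09 log2 units, are the background for the gene lists below. The balance of directions depends on scaling: with median of ratios scaling 1589 genes were higher and 1806 lower, and the median difference of all genes was -0.07 in place of 0.09 log2 units, a shift of -0.15. edgeR called 1789 higher and 1764 lower, and DESeq2 1727 higher and 1711 lower.

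**Figure D2:**
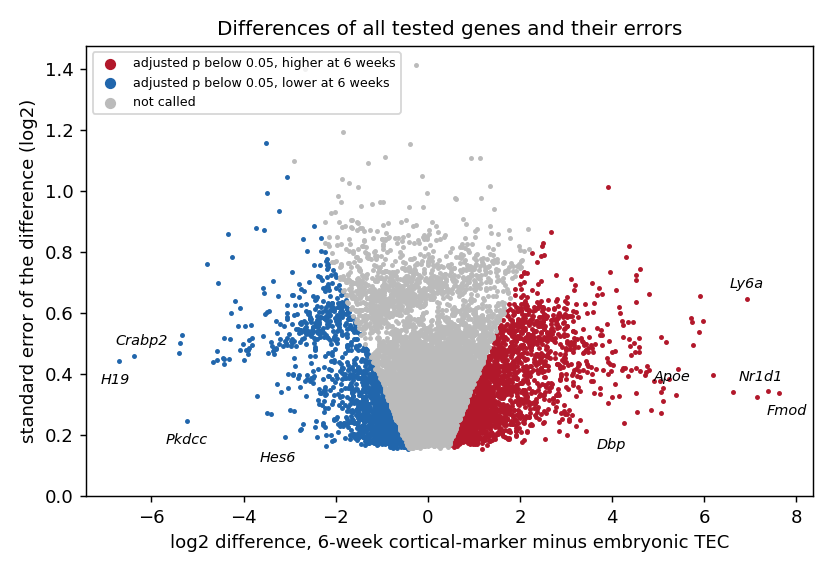
Log2 difference (6-week cortical-marker minus embryonic TEC, horizontal axis) and its standard error (vertical axis, log2) for the 10407 tested genes, with the 17 listed cortical genes left out. Red points are called higher, blue points called lower, grey points not called. The named genes at the sides, from H19 at -6.70 to Fmod at 7.64, lie far outside the grey wedge of genes whose difference is small for its error.

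The largest rises included the proteoglycan genes Fmod and Prelp, the surface antigen gene Ly6a and the clock and stress factors Nr1d1 and Atf3. Fmod, the collagen-binding proteoglycan fibromodulin, had 799, 467, 611 and 380.2 CPM at 6 weeks and 0.801, 0, 0.884 and 2.98 CPM in embryonic TEC. Prelp, a related proteoglycan of basement membranes, had 439.9, 308, 363 and 259 CPM against 0, 1.15, 1.77 and 0 CPM. Both were near 0 in every embryonic library, and the differences were 7.64 ± 0.34 and 7.16 ± 0.33 log2 units (SE), with adjusted p = 1.53e-08 for each. Fmod also ran from 0 to 303 CPM in the other 16 6-week libraries, with a median of 8.09 CPM. Ly6a (Sca-1), an interferon-inducible surface antigen of progenitor cells, had 2023, 1079, 1731 and 1141 CPM against 1.602, 2.89, 28.3 and 39.7 CPM (6.93 ± 0.65, adjusted p = 6.69e-06). Within the embryo Ly6a was higher in both E17 libraries than in both E15 libraries.

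Several of these genes were all but absent from the embryonic libraries. Dpp6, a subunit of potassium channels, gave 368 UMIs at 6 weeks and 1 in the embryo, a ratio of levels of 917 (95% counting interval 164 to 36326). Xaf1, an interferon-inducible gene that promotes apoptosis, gave 162 against 1 UMIs, a ratio of 404 (95% counting interval 71.5 to 16046). Tgm2, a protein cross-linking transglutaminase, averaged 275 ± 79.4 CPM against 2.28 ± 2.06 CPM, and Fxyd2, a regulator of the sodium pump, 1480.2 ± 329 CPM against 37.2 ± 20.4 CPM. Thbd, the surface receptor thrombomodulin, rose by 5.44 log2 units, the cytoskeletal genes Tagln and Tns4 by 5.98 and 5.76, the methyltransferase gene Inmt by 5.73, and the insulin-like growth factor binding genes Igfbp7 and Igfbp5 by 5.89 and 5.72. All 15 genes with the largest rises kept the call when any 1 of the 8 libraries was left out.

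The largest falls included H19, Crabp2 and Pkdcc. H19, an imprinted noncoding RNA of the embryo, had 0, 1.03, 0 and 0 CPM at 6 weeks and 328, 383, 95.5 and 139 CPM in embryonic TEC. Crabp2, which carries retinoic acid to its nuclear receptor, had 5.14, 8.24, 4.59 and 0 CPM against 639, 582, 310.3 and 306 CPM. Pkdcc, a secreted tyrosine kinase of skeletal and lung development, had 41.1, 19.6, 41.3 and 24.9 CPM against 1486, 1319, 1121 and 959.9 CPM. The 15 largest falls were taken only from called genes whose sides do not overlap. For these 3 genes the differences were -6.70 ± 0.45, -6.37 ± 0.46 and -5.24 ± 0.25 log2 units (SE). Mfap2, a microfibril protein, the chromatin linker histone gene H1f10 and the calcium-binding S100a3 fell too, with differences of -5.40, -4.43 and -4.32 log2 units. Tead2, a transcription factor that acts with Yap in the Hippo pathway, gave 1 UMI at 6 weeks and 272 in the embryo, and Smtnl2 gave none and 223, so it was at least 29.8-fold lower at 6 weeks (floor of 3 UMIs over the 4 libraries, 1.46 CPM). Ccdc102a (-5.33), Bex2 (-4.58), the peroxidase gene Lpo (-4.80), Aire (-4.35), Fbn2, Hmga2 and Igf2bp2 complete the 15. Lpo and Aire differ within the embryo, where Lpo had 40.9 and 91.8 CPM at E15 and 258 and 250.2 CPM at E17, and the medians of the other 16 6-week libraries (168 CPM for Lpo and 115 CPM for Aire) lie within the embryonic range of either gene.

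Cell division genes were mostly lower in the adult cortical-marker libraries. Of 25 listed genes of G2 and mitosis 22 passed the filter on low values, 17 of them fell and 0 rose, with a median difference of -1.86 log2 units, against 13.4% lower and a median of 0.09 over all genes. Ube2c, the ubiquitin-conjugating enzyme of the anaphase-promoting complex, had 47.9, 47.4, 13.8 and 64.0 CPM at 6 weeks and 279, 361, 203 and 189 CPM in the embryo (-2.66 ± 0.38, adjusted p = 0.00018). Plk1, a kinase that drives entry into mitosis, had 18.8, 11.3, 50.5 and 14.2 CPM against 168, 158, 99.9 and 88.3 CPM (-2.53 ± 0.39, adjusted p = 0.000312). All 4 6-week libraries lay below all 4 embryonic ones for both genes. Bub1b of the spindle checkpoint (-2.24 log2 units), cyclin A2 (Ccna2, -2.49), the centromeric histone Cenpa (-1.86) and the mitotic kinesin Kif20a (-2.39) fell as well.

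The promoters of Plk1 and Ube2c are printed because CCAAT boxes beside a cell cycle homology region (TTTGAA or TTCGAA) are the shared layout of mitotic promoters. Both are RefSeq promoters on GRCm38.p6, of Plk1 (chr7:122159185-122159484, plus strand) and Ube2c (chr2:164769679-164769978, plus strand), with capitals at CCAAT and at either form of the homology region, on either strand.
Plk1: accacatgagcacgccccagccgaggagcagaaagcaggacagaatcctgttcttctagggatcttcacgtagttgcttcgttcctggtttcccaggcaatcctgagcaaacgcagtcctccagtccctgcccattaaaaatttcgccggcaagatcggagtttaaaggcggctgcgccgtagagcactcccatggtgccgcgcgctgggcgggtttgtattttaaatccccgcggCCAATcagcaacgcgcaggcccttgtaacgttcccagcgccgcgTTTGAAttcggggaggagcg
Ube2c: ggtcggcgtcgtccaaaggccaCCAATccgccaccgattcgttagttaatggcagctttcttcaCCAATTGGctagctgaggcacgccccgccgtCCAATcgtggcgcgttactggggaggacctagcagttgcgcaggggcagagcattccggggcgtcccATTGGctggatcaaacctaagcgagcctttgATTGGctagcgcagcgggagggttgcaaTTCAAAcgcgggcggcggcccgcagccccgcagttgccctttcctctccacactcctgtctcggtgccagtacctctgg
Of the 21 listed mitotic genes with a RefSeq promoter, 18 held CCAAT (85.7%, against 37.9% of 27025 promoters), 16 held TTTGAA (76.2% against 18.1%) and 3 held TTCGAA (14.3% against 1.57%). A CCAAT together with either of the other motifs was found in 16 (76.2% against 7.70%). Matches of different motifs can share at most 1 base, matches of CCAAT on opposite strands can overlap as in Ube2c, and a match describes letters, not a bound site.

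The replication genes moved in the same direction. Of 16 tested members of 20 listed, 15 fell and 0 rose, against 13.4% lower among all genes, with a median of -1.22. Without E15 library 2 the count of falls was 9, beside 939 of all 10329 genes tested in that fit. Without any 1 of the other libraries it was 12 to 14. Gins2, part of the replicative helicase, had 17.1, 23.7, 4.59 and 14.2 CPM at 6 weeks and 100.1, 126, 86.6 and 58.6 CPM in the embryo. Dnmt1, which copies DNA methylation after replication, had 32.5, 30.9, 27.5 and 21.3 CPM against 147, 146, 86.6 and 94.3 CPM. Neither gene overlaps between the sides, at -2.62 ± 0.40 and -1.99 ± 0.25 log2 units. The helicase subunits Mcm6 (-1.23 log2 units) and Mcm3 (-1.32), thymidine kinase Tk1 (-1.68) and the ribonucleotide reductase subunit Rrm1 (-0.98) fell too. Against E17 alone 6 of the replication genes and 10 of the mitotic genes fell, beside 764 of all 10237 genes tested in that fit. Against E15 alone 12 and 16 fell, beside 807 of 10010.

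Cell cycle inhibitors did not move as 1 group. Of 11 tested members 5 rose and 1 fell, against 18.6% higher and 13.4% lower among all genes. Yet against E17 alone 1 rose and 2 fell, beside 1099 and 764 of all 10237 genes tested in that fit. Against E15 alone 5 rose and 1 fell, beside 1495 and 807 of 10010. Leaving out 1 of the libraries mTEC1, mTEC2, E15 library 1 or E15 library 2 left 3 higher, beside 1493 to 1788 of all tested genes. Rbl2, the pocket protein p130 of resting cells, had 78.7, 49.5, 55.1 and 78.2 CPM at 6 weeks and 20.03, 23.7, 19.4 and 31.8 CPM in the embryo (1.39 ± 0.27, adjusted p = 0.00171), and Cdkn1b (p27) averaged 26.9 ± 7.93 against 5.96 ± 3.86 CPM (SD, n = 4 each). The antiproliferative gene Btg2 rose by 2.06, Cdkn1a (p21) by 1.18 and the damage-response gene Gadd45a by 1.21 log2 units. Cdkn1a and Gadd45a overlap between the sides and kept the call in 4 and 2 of the 8 fits that leave out 1 library. Cdkn1c (p57), which is imprinted, fell to 17.1, 19.6, 9.18 and 7.11 CPM at 6 weeks, against 27.2, 92.3, 124 and 133 CPM in the embryo (-2.55 ± 0.46, adjusted p = 0.00106). In the other 16 6-week libraries Cdkn1c ran from 36.6 to 806 CPM, above all 4 cortical-marker libraries.

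Imprinted growth genes, a network known for its decline after birth in many organs, were mostly lower in the 6-week cortical-marker libraries. Of 13 tested members of 19 listed, 8 fell and 2 rose, against 13.4% lower and 18.6% higher among all genes, with a median of -2.87 log2 units. The summed level of the list was 142 to 250 CPM in these libraries and 661 to 880 CPM in embryonic TEC. In the other 16 6-week libraries it ran from 238 to 1231 CPM (median 551 CPM), so the low sum is not shared by all 6-week TEC. Grb10, an inhibitor of insulin receptor signalling, had 12.0, 5.15, 9.18 and 28.4 CPM at 6 weeks and 133, 124, 122 and 131 CPM in embryonic TEC (-3.28 ± 0.37, adjusted p = 3.06e-05). Igf2, the fetal insulin-like growth factor, gave 3 UMIs against 190, with the embryonic level 25.4 (95% counting interval 8.56 to 124) times the 6-week level. Meg3, a maternally expressed noncoding RNA, gave 3 against 225 UMIs, a ratio of 30.1 (95% counting interval 10.2 to 147). Ndn (-3.30), Nnat (-3.45) and Mest (-2.87) fell too. The 2 that rose were Impact, a translational regulator, at 156, 68.0, 64.3 and 124 CPM against 39.2, 24.8, 40.7 and 44.7 CPM, and Sgce, a sarcoglycan, at 23.6 against 10.9 CPM on average. Sgce kept its call in 2 of the 8 fits that leave out 1 library.

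Among RNA-binding and chromatin genes that mark fetal cells, Hmga2 and Igf2bp3 had no UMI at 6 weeks. Hmga2, a chromatin protein of embryonic and fetal stem cells that the let-7 miRNAs repress, gave 0 UMIs in the 2054088 UMIs of the 4 6-week libraries. In embryonic TEC Hmga2 had 42.5, 46.7, 31.8 and 25.8 CPM, so it was at least 26.2-fold lower at 6 weeks. It had no UMI in any of the other 16 6-week libraries either. Igf2bp3, an oncofetal binding protein of Igf2 mRNA, gave 0 against 141 UMIs and was at least 18.9-fold lower. Igf2bp2 had 8.56, 6.18, 0 and 10.7 CPM at 6 weeks and 184, 145, 99.0 and 94.3 CPM in the embryo. Hmgb3 (-1.89) and the Polycomb methyltransferase Ezh2 (-1.23, call kept in 4 of 8 fits) fell as well, which makes 5 of 7 tested members with 0 higher, of 14 listed and 9 in the table. Arid3b stood at 17.8 against 18.5 CPM on average and was kept within 2-fold. Of 15 ribosome biogenesis genes 2 fell and 1 rose, against 13.4% lower and 18.6% higher among all genes. By edgeR 4 falls were called. Without E15 library 2 there were 0 falls, beside 939 of all 10329 genes tested in that fit. Nop58, the 1 that rose, stood at 92.9 against 39.2 CPM. Nhp2, which fell with the call kept in 6 of 8 leave-one-out fits, stood at 177 against 281 CPM.

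**Figure D3:**
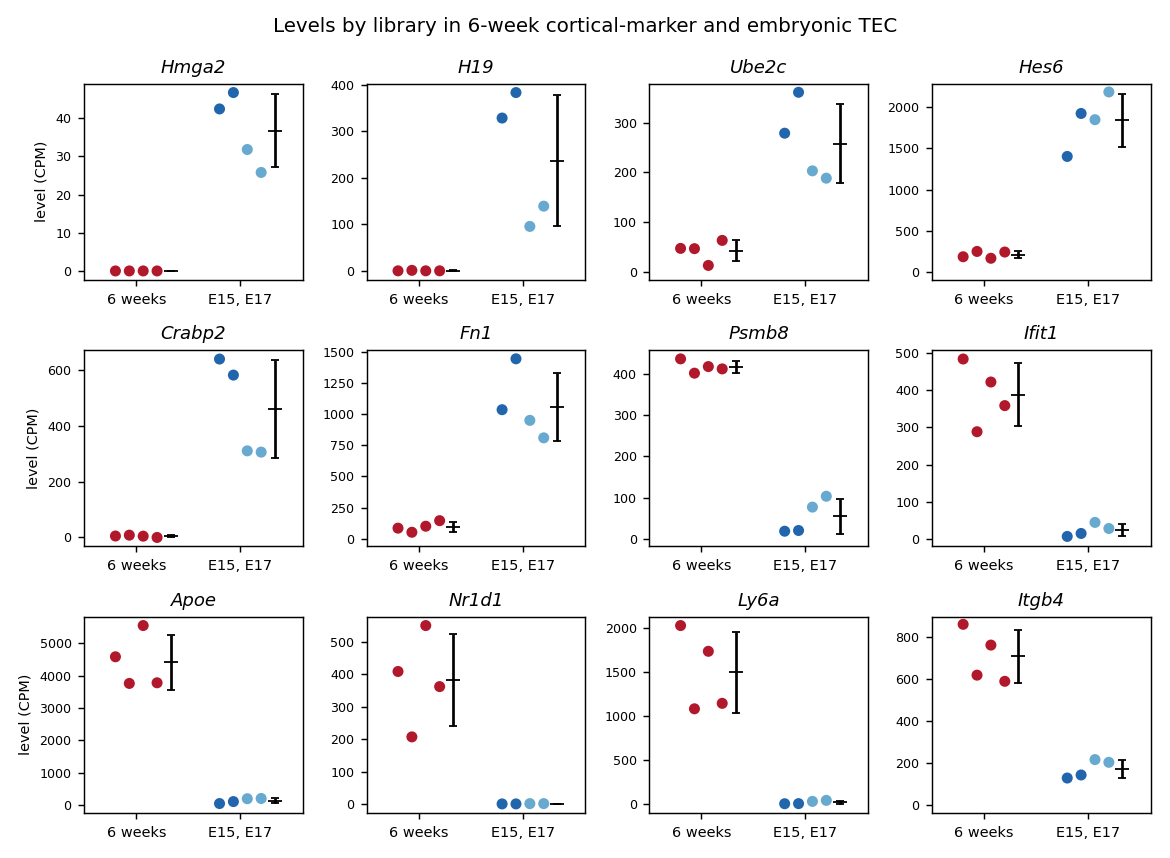
Levels of 12 genes (vertical axes, CPM, linear) in each of the 4 6-week cortical-marker libraries (left, red) and the 4 embryonic libraries (right; E15 dark blue, E17 light blue), with the mean and SD of each side in black. In no panel do the sides overlap, which was a condition of choice for H19, Crabp2, Hmga2, Nr1d1 and Ly6a. Psmb8 and Ly6a are higher at E17 than at E15, whereas Crabp2, H19 and Hmga2 are lower at E17.

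Genes of MHC class I presentation were mostly higher in the adult cortical-marker libraries. Of 16 tested genes 11 rose and 1 fell, against 18.6% higher and 13.4% lower among all genes, with a median of 1.15 log2 units. Psmb8, the interferon-inducible immunoproteasome subunit, had 436, 402, 418 and 412 CPM at 6 weeks and 18.4, 20.2, 76.9 and 103 CPM in embryonic TEC (3.26 ± 0.44, adjusted p = 0.000118). B2m, the light chain of class I molecules, had 4871, 3899, 3930.3 and 4431 CPM against 741, 499, 1753 and 1455 CPM (2.11 ± 0.32, adjusted p = 0.000304). The 6-week libraries of both genes lie above the embryonic ones, and within the embryo both E17 libraries lie above both E15 libraries. Tap2, a chain of the peptide transporter, averaged 289 ± 46.4 against 76.2 ± 17.0 CPM, and Tapbpl, a peptide editor, 107 ± 2.97 against 34.1 ± 3.39 CPM (SD, n = 4 each). The heavy chains H2-D1 and H2-K1 rose by 2.26 and 1.79 log2 units, but near-identical class I genes may share their reads. Psmb10, the immunoproteasome partner that is also built into the thymoproteasome, went the other way, with 1797, 2319, 1299 and 1844 CPM at 6 weeks and 4193, 3869, 2829.5 and 2871 CPM in the embryo (-0.93 ± 0.22, adjusted p = 0.00538).

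Of the constitutive proteasome beta subunits 2 of 7 (28.6%) fell and 0 rose, against 13.4% lower and 18.6% higher among all genes. Psmb6, the constitutive counterpart of Psmb9, had 406, 577, 459 and 572 CPM at 6 weeks and 1073, 1024, 917 and 947 CPM in the embryo. Psmb6 (-0.99 log2 units) and Psmb2 (-0.93) fell, and the other 5 did not pass the test, with Psmb7 at 141 against 131 CPM. Under leave-one-out the 2 falls were called in every fit.

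Interferon-stimulated genes rose almost throughout. Of 20 tested genes of 22 listed, 17 rose and 0 fell, with a median of 2.19 log2 units, against 18.6% higher among all genes. Ifit1, which binds foreign RNA caps, had 484, 288, 422 and 359 CPM in the 6-week cortical-marker libraries and 6.41, 14.4, 44.2 and 27.8 CPM in embryonic TEC (4.22 ± 0.41, adjusted p = 9.99e-06). Gbp2, a guanylate-binding protein, had 185, 172, 129 and 185 CPM against 16.8, 17.3, 29.2 and 24.8 CPM (2.85 ± 0.24, adjusted p = 3.69e-06). Rsad2, the antiviral enzyme viperin, had 77.0, 41.2, 45.9 and 67.5 CPM against 1.602, 1.15, 11.5 and 3.97 CPM. None of these 3 genes overlaps between the sides. Oas1a, a sensor of double-stranded RNA, rose by 3.63, Ifi44 by 2.04 and the transcription factor gene Irf1 by 1.62 log2 units. Reads of Ifit1, Oas1a and Gbp2 may be split with close paralogs. Irf1 ran from 607 to 1175 CPM in the 4 cortical-marker libraries and from 107 to 375 CPM in the other 16 6-week libraries. Summed thymocyte markers moved with these genes, at 234 to 1247 CPM against 44.9 to 110.2 CPM, and their part in the interferon and class I differences was not tested.

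Promoters of Ifit1 and Rsad2 are shown for the element that gives this group its name. They are RefSeq promoters on GRCm38.p6, of Ifit1 (chr19:34640639-34640938, plus strand) and Rsad2 (chr12:26456403-26456702, minus strand), with capitals at the core of the interferon-stimulated response element, searched as TTTC, any 2 bases and TTTC on either strand.
Ifit1: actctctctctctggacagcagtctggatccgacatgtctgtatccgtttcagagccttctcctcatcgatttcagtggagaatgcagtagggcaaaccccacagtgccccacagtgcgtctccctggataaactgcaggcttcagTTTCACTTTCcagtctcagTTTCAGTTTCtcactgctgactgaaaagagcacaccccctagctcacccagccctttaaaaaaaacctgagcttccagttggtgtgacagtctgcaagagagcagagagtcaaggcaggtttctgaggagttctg
Rsad2: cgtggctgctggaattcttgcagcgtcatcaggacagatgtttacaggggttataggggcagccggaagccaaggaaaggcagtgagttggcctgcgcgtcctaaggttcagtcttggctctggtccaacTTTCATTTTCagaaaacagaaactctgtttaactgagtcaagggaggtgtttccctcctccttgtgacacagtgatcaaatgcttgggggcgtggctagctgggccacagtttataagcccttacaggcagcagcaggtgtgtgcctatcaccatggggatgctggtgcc
Of the 15 listed interferon genes with a RefSeq promoter, 10 held this motif (66.7%), against 3.49% of all 27025 promoters. The motif was chosen after the values of these genes were seen.

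About as many genes of MHC class II presentation rose as did not. Of 12 tested genes 6 rose and 1 fell, against 18.6% higher and 13.4% lower among all genes, with a median of 0.71 log2 units. H2-DMa, a chain of the molecule that exchanges class II peptides, had 945, 999, 1097 and 828 CPM at 6 weeks and 304, 368, 587 and 482 CPM in embryonic TEC (1.19 ± 0.21, adjusted p = 0.0009). Cd74, the invariant chain, had 8829, 11346, 6938 and 10027 CPM against 3049, 3876, 5183 and 6358 CPM (1.04 ± 0.25, adjusted p = 0.00686). Neither overlaps between the sides, although for both the E17 libraries lie closer to the 6-week level. The DM beta chains H2-DMb1 and H2-DMb2, which may share reads, rose by 1.17 and 1.88, the class II transactivator Ciita by 1.32 and the DO chain H2-Oa by 1.48 log2 units, H2-Oa with the call kept in 5 of 8 leave-one-out fits. The classical chains H2-Aa (6390.2 against 5143 CPM) and H2-Ab1 (9723 against 8307 CPM) were kept within 2-fold. Ifi30, a lysosomal thiol reductase that unfolds antigens, had 142, 241, 96.4 and 188 CPM against 301, 309, 836 and 816 CPM and fell (-1.66 log2 units), with the E17 libraries highest. Against E17 alone 3 class II genes rose and 2 fell, beside 1099 and 764 of all 10237 genes tested in that fit. Against E15 alone 7 rose and 0 fell, beside 1495 and 807 of 10010.

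Part of the autophagy and lysosome list was higher at 6 weeks. Autophagy feeds cytoplasmic proteins into class II loading in TEC. Of 22 tested genes 9 rose and 1 fell, and 5 were kept within 2-fold. Among all genes 18.6% were higher, 13.4% lower and 25.6% kept. Psap, the precursor of the saposins that help degrade lysosomal lipids, had 555, 467, 652 and 675 CPM in the 6-week cortical-marker libraries and 116, 79.6, 99.0 and 101 CPM in embryonic TEC (2.54 ± 0.19, adjusted p = 1.11e-06). The autophagy receptor Sqstm1 (p62) had 524, 493, 418 and 622 CPM against 139, 121, 166 and 176 CPM. Gabarapl1, which coats autophagosomes, had 181, 189.6, 142 and 167 CPM against 31.2, 27.7, 52.2 and 48.6 CPM. No library of 1 side reaches the other side in these 3 genes. Lamp1, Ctsd and Map1lc3b rose by 1.19, 1.04 and 0.97 log2 units. Gabarap fell (-0.57 log2 units), a call that 2 of 8 leave-one-out fits kept. Lamp2, which imports proteins into the lysosome, was kept within 2-fold at 637 against 614 CPM, whereas its highest level in the other 16 6-week libraries was 307 CPM.

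Clock and glucocorticoid output genes gave some of the widest separations. Of 13 tested members of 18 listed, 9 rose and 1 fell, against 18.6% higher among all genes, with a median of 2.46 log2 units. Nr1d1 (Rev-erb alpha), the repressor arm of the circadian clock, had 409, 207, 551 and 362 CPM at 6 weeks and 0, 0, 0.884 and 0.993 CPM in embryonic TEC, or 662 against 2 UMIs. Dbp, a clock-controlled transcription factor, had 277, 247, 257 and 334 CPM against 24.0, 18.5, 30.1 and 24.8 CPM (3.44 ± 0.21, adjusted p = 1.92e-07). The 6-week levels of Dbp were several times those of the embryo and Nr1d1 was all but undetected there, while the other 16 6-week libraries had medians of 64.2 CPM for Nr1d1 and 58.6 CPM for Dbp. Klf9, a glucocorticoid and thyroid hormone target, had 63.3, 56.7, 64.3 and 64.0 CPM against 2.403, 2.89, 15.0 and 4.96 CPM. Mt1, a metallothionein that binds zinc, had 1222, 971, 1855 and 2032 CPM against 15.2, 14.4, 259 and 334 CPM. Both were higher at 6 weeks in every library, and Mt1 was higher at E17 than at E15. Nr1d2 rose by 2.46 and Tsc22d3, the glucocorticoid-induced leucine zipper, by 1.14 log2 units. Fkbp5, a glucocorticoid receptor co-chaperone that is itself a receptor target, fell to 65.0, 47.4, 91.8 and 121 CPM at 6 weeks, against 229.9, 188, 190.0 and 165 CPM in the embryo (-1.31 ± 0.26, adjusted p = 0.00211). Per1 did not pass, at 59.3 against 57.9 CPM. The labels used here give no time of day for the dissections.

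In the list of the BMP, FGF and TGF-beta pathways 9 of 18 tested genes rose and 0 fell, against 18.6% higher among all genes. Id1, a BMP target that inhibits differentiation factors, had 269, 263, 354 and 203 CPM at 6 weeks, against 57.7, 91.8, 41.5 and 65.5 CPM in embryonic TEC. Its relative Id2 had 199, 264, 312 and 159.9 CPM against 26.4, 51.4, 38.9 and 59.6 CPM. Id3 had 947, 900.4, 1028 and 615 CPM against 312, 282, 154 and 155 CPM. All 3 Id genes were higher in every 6-week library, by 2.08, 2.37 and 1.99 log2 units. Dusp6, a feedback target of FGF signalling, rose by 2.82, with 174 CPM in the library mTEC3 and 32.0 to 47.9 CPM in the other 3, and Tgfbr2, a TGF-beta receptor chain, by 1.56. Fst, the activin antagonist follistatin, gave 70 UMIs at 6 weeks and 1 in the embryo. Fgfr2, the receptor through which Fgf7 and Fgf10 drive TEC growth, did not pass, at 197 against 143 CPM. Marker sums of endothelium (96.8 to 636 against 10.4 to 49.6 CPM), mesenchyme (2171 to 3081 against 156 to 598 CPM) and dissociation stress (12568 to 19950.0 against 1396 to 6365 CPM) moved with this list, and their part in it was not tested.

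In the Notch and Wnt list 7 of 19 tested genes rose and 6 fell, or 36.8% and 31.6%, against 18.6% and 13.4% among all genes. Without E15 library 2 the counts were 3 and 4, beside 1493 and 939 of all 10329 genes tested in that fit. Without mTEC1, mTEC3, mTEC4 or E17 library 2 the rises were 4. Hes6, a transcription factor that relieves repression by Hes1, had 188, 252, 169.9 and 245 CPM at 6 weeks and 1401, 1921, 1846 and 2181 CPM in the embryo (-3.09 ± 0.20, adjusted p = 2.34e-07). Heyl, a Notch target, gave 3 UMIs against 108 and fell (-3.14 log2 units), as did Hes1 itself (-0.93). The Notch ligand gene Jag1 rose, with 22.3, 15.5, 13.8 and 10.7 CPM at 6 weeks against 2.403, 2.31, 2.65 and 0.993 CPM in the embryo. Dll1, another ligand of Notch, rose with 71.9, 55.6, 23.0 and 42.6 CPM against 10.4, 9.23, 15.9 and 20.8 CPM. These 2 ligand genes were thus higher, and the targets Heyl and Hes1 lower, in every 6-week cortical-marker library. The ligand gene Dll4, described above without a test, went the other way from Jag1 and Dll1 and was lower in every 6-week cortical-marker library. Wnt4, a Wnt ligand that induces Foxn1 in TEC lines, rose by 0.93 log2 units (228 against 118 CPM), Notch1 by 1.30 and Jag2 by 1.38, with Notch1 called in 6 and Jag2 in 1 of 8 leave-one-out fits. The Wnt repressor Tcf7l1 (-0.78) and Nrarp, a Notch feedback gene (-1.20), fell, and Wnt10b, which was called lower, gave no UMI at 6 weeks against 32 in the embryo; these calls held in 7, 6 and 5 of the 8 fits.

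Of 10 tested factors that lay down the pharyngeal pouch and the thymus, 2 rose, 1 fell and 7 were not called. These shares are near those of all genes, 18.6% higher and 13.4% lower. Pax1, a pouch endoderm factor, had 806, 681, 629 and 821 CPM in the 6-week cortical-marker libraries and 1359, 1435, 1189 and 1026 CPM in embryonic TEC (-0.77 ± 0.18, adjusted p = 0.00497). Isl1 had 156, 117, 133 and 107 CPM against 36.0, 60.6, 58.3 and 52.6 CPM (1.29 ± 0.23, adjusted p = 0.000887). Pax1 fell and the homeobox gene Isl1 rose, and neither overlaps between the sides. Trp63 (p63), which maintains epithelial progenitors, differed by 0.00 log2 units (95% interval -0.40 to 0.41), and Sox4 was kept within 2-fold as well. Pax1 was far higher than in the other 16 6-week libraries, whose highest value was 259 CPM.

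Matrix genes moved in both directions. Of 24 tested genes 12 rose, against 18.6% higher among all genes. The 4 that fell (16.7%) are near the 13.4% lower of all genes. Fn1, fibronectin, had 85.6, 52.5, 101 and 146 CPM at 6 weeks and 1036, 1444, 950.2 and 810.0 CPM in embryonic TEC (-3.49 ± 0.27, adjusted p = 1.56e-06). Frem2, an embryonic basement membrane protein, had 20.5, 48.4, 9.18 and 46.2 CPM against 193, 223, 198 and 153 CPM. Fbn2, the fetal fibrillin, gave no UMI against 214 and was at least 28.6-fold lower, and tenascin C (Tnc) fell (-1.21 log2 units). These 4 proteins belong to the provisional and embryonic matrix. Among those that rose, the hemidesmosome integrin Itgb4 had 861, 619, 762 and 589.8 CPM against 129.8, 144, 217 and 204 CPM (2.03 ± 0.21, adjusted p = 1.54e-05). Lamb3, Lamb1, Col18a1 and the anchoring fibril collagen Col7a1 rose by 0.91, 1.44, 0.94 and 3.75 log2 units. Lamc1 was kept within 2-fold, at 49.98 against 51.5 CPM. Summed mesenchymal markers moved with the matrix genes, at 2171 to 3081 CPM against 156 to 598 CPM. Of 12 tested markers 7 were higher, and of the 14 in the table Col1a1 and Pdgfra had no UMI at 6 weeks. Their part in the matrix differences was not tested.

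In the list of sterol synthesis and lipid transport 4 of 18 tested genes rose and 0 fell by limma, a share near the 18.6% of all genes; edgeR and DESeq2 each called 4 higher and 1 lower. Apoe, the apolipoprotein that carries cholesterol between cells, had 4579, 3757, 5542 and 3777 CPM at 6 weeks and 54.5, 115, 203 and 210.4 CPM in embryonic TEC (5.07 ± 0.34, adjusted p = 4.22e-07). The cholesterol exporter Abca1 had 46.2, 38.1, 50.5 and 46.2 CPM against 0.801, 2.89, 3.54 and 1.99 CPM. Lpl, a lipase that frees fatty acids from lipoproteins, had 53.1, 46.4, 41.3 and 99.5 CPM against 1.602, 2.31, 7.96 and 2.98 CPM. In each of these the sides are widely apart. With the lipid droplet gene Plin2 (1.07 log2 units, call kept in 4 of 8 leave-one-out fits) they are the 4 that rose. Mvk (45.4 against 47.9 CPM), Srebf2 (69.2 against 60.5) and Sqle (41.3 against 53.9) did not pass by limma, and the median of the list was -0.25.

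**Figure D4:**
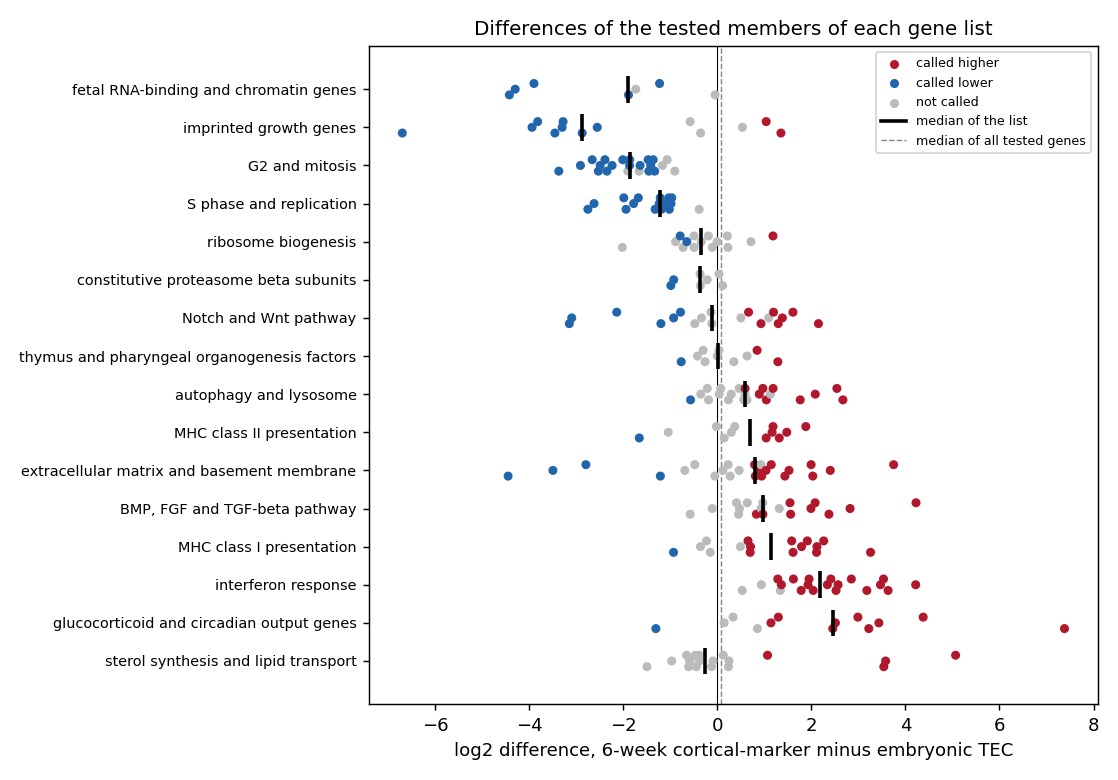
Log2 difference (horizontal axis, 6-week cortical-marker minus embryonic TEC) of each tested member of 16 gene lists; points are genes, red called higher, blue called lower and grey not called, black bars list medians, the dashed line the median of all tested genes (0.09). The fetal, imprinted and cell division lists lie left of 0, from medians of -2.87 to -1.22, and the class I, interferon and clock lists lie right of it.

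Markers of other epithelial and non-epithelial cells were also compared, because a sorted population can carry them over. In bulk libraries fewer cells of a type and less RNA per cell cannot be told apart. Thymocyte markers were higher at 6 weeks in 11 of 14 tested genes, with 0 lower, against 18.6% higher among all genes. Cd8b1 had 80.4, 113, 32.1 and 153 CPM against 0, 1.15, 3.54 and 8.93 CPM. Dntt, the terminal transferase of immature lymphocytes, had 80.4, 79.3, 18.4 and 95.9 CPM against 0, 0.577, 1.77 and 0.993 CPM. Cd8a gave 53 UMIs at 6 weeks and none in the embryo. The library titled mTEC3 had the least of all 3 genes at 6 weeks. Endothelial markers rose in 8 of 9 tested genes, with summed levels of 96.8 to 636 CPM at 6 weeks and 10.4 to 49.6 CPM in embryonic TEC. Pecam1 had 42.8, 13.4, 36.7 and 67.5 CPM against 0.801, 1.15, 2.65 and 4.96 CPM. Plvap, a protein of endothelial fenestrae, had 25.7, 20.6, 119 and 203 CPM against 0, 1.15, 3.54 and 4.96 CPM. For the myeloid list the sums were 165 to 483 CPM against 44.4 to 314 CPM, and 5 of 8 tested genes rose, C1qa among them at 23.6 against 5.54 CPM, with the call kept in 3 of 8 leave-one-out fits. The share of these cell types in the differences of other genes was not tested.

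Mesenchymal markers moved unevenly. The proteoglycan Dcn had 1648, 1276, 1024 and 831 CPM at 6 weeks and 8.81, 19.6, 85.7 and 69.5 CPM in embryonic TEC. Sparc, a collagen-binding matrix protein, had 524, 550.2, 519 and 444 CPM against 33.6, 58.3, 87.5 and 91.3 CPM. The collagen VI genes Col6a1 and Col6a2 rose by 2.03 and 2.54 log2 units. The defining markers Col1a1 and Pdgfra gave no UMI in any of the 4 6-week cortical-marker libraries, against 37 and 7 UMIs in embryonic TEC. Col1a2 (33.9 against 28.2 CPM) and Col3a1 (23.0 against 23.7 CPM) did not pass. In all 7 of 12 tested genes rose and 0 fell, against 18.6% higher among all genes.

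Among medullary markers the Aire-stage list was low on the adult side. Aire, which drives the display of tissue antigens, had 3.42, 27.8, 0 and 3.55 CPM in the 6-week cortical-marker libraries and 45.7, 35.2, 362 and 383 CPM in embryonic TEC (-4.35 ± 0.86, adjusted p = 0.00189). Utf1, Spib and Il23a fell too, 4 of 11 tested genes in all with 0 higher, against 13.4% lower among all genes. Spib and Il23a kept the call in 5 and 2 of 8 leave-one-out fits. Without E17 library 1 or E17 library 2 the count was 2, beside 1036 and 1082 lower among all tested genes. By edgeR and by DESeq2 6 were called lower. The summed level of this list was 142 to 285 CPM at 6 weeks, against 159 to 1444 CPM in the embryo and 1221 to 10991 CPM in the other 16 6-week libraries. Against E17 alone 8 of these genes fell, beside 764 of all 10237 genes tested in that fit. Against E15 alone 1 fell and 1 rose, beside 807 and 1495 of 10010. Basal keratinocyte-like genes went up in 6 of 12, against 18.6% of all genes. Krt14 stood at 758, 667, 882 and 416 CPM against 73.7, 91.8, 168 and 142 CPM and podoplanin (Pdpn) at 96.6 against 10.9 CPM. Krt5 did not pass (540.5 against 411 CPM), and Krt17 fell (-0.54 log2 units) in a call that 1 of 8 leave-one-out fits kept. The tuft markers Trpm5 and Avil did not pass, at 7.02 and 8.96 CPM at 6 weeks and 1.56 and 1.63 CPM in the embryo. Of 5 tested tuft genes only Ltc4s rose (call kept in 4 of 8 leave-one-out fits) and 0 fell, a share near the 18.6% higher of all genes. The B cell list had 0 calls in 2 tested genes, and the embryonic globin Hba-x, the 1 tested erythroid gene, fell (-2.46 log2 units), a call kept in 1 of 8 leave-one-out fits.

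Immediate early and heat shock genes, which enzymatic dissociation can induce, were higher in the 6-week cortical-marker libraries. Of 15 such genes 12 rose and 0 fell, against 18.6% higher among all genes, with a median of 2.06 log2 units. Atf3, a stress-induced transcription factor, had 972, 839.7, 987 and 849 CPM at 6 weeks and 3.20, 2.89, 54.8 and 38.7 CPM in embryonic TEC. Fosb had 1189.6, 769.6, 1557 and 1023 CPM against 21.6, 24.8, 101 and 83.4 CPM. Egr1, another immediate early gene, had 1696, 1288, 1625 and 1258 CPM against 126, 130.4, 459 and 406 CPM. All 4 6-week libraries exceeded all embryonic ones in these genes, and the E17 libraries lay between the E15 and the 6-week libraries. The summed level was 12568 to 19950.0 CPM at 6 weeks and 1396 to 6365 CPM in the embryo, against 4036 to 20188 CPM in the other 16 6-week libraries. What part handling has in these levels, or in those of stress-responsive genes such as Mt1, was not tested.

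**Figure D5:**
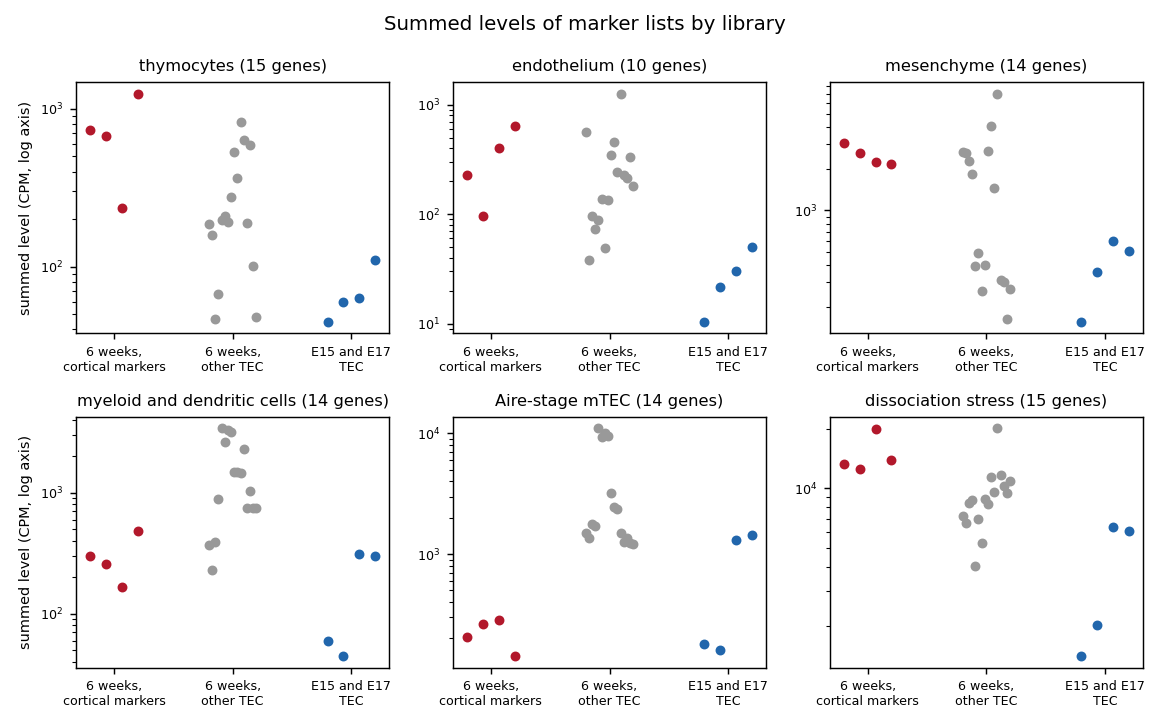
Summed level of 6 marker lists (vertical axes, CPM, log scale) in each library of the 6-week cortical-marker group, the other 16 6-week TEC libraries and embryonic TEC; each point is a library. The 4 cortical-marker libraries exceed embryonic TEC in thymocyte, endothelial, mesenchymal and dissociation stress genes, and have at most 285 CPM of Aire-stage genes.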

How the data were processed

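The deposited table holds 15273 genes in 33 libraries. The build mm10 and the tools STAR 2.4.2a, HTSeq, cutadapt, DESeq2 and bcl2fastq were used per the submitters' processing notes, without role or order, and per the labels' protocols libraries were made by bulk MARS-seq. The authors deposited a normalized signal that sums to 100 per library, so a value is a percentage of that library's UMIs. How it was scaled, and whether counting used strand, is not given in the sources used here. Low values were whole multiples of 1 UMI within 0.01 in all 33 libraries, which gave back whole UMIs and depths of 98670 to 1732688.

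Libraries were grouped by Prss16 above 0.2% at 6 weeks and by the E15 and E17 titles. Members and gene lists were chosen with earlier results of these data known, so no list gives independent support. Genes with at least 5 scaled UMIs in at least 2 of the 8 libraries (10407) were tested with limma 3.58.1 in R 4.3.3, two-sided with a mean-variance trend, on log2(UMIs scaled to 570253 per library + 1), which understates changes of low genes. Calls are at a Benjamini-Hochberg adjusted p below 0.05 over all tested genes, and adjusted p-values in the text are these. Errors of log2 differences are SE and those of CPM are SD, with n = 4 per side. Floors of 3 UMIs and exact 95% counting intervals cover counting error only. The median tested gene had a 95% interval of 0.75 log2 units to either side.

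Named genes were the cortical genes without a test, the 15 largest differences in each direction among called, non-overlapping genes with a proper name, and per list up to 6 called members in each direction by adjusted p and up to 3 uncalled members kept within 2-fold. Alternatives were pseudocounts of 0.5 and 5, other filters, median of ratios scaling, edgeR 4.0.16 and DESeq2 1.42.0 on whole UMIs, E15 and E17 as separate groups or alone, other 6-week libraries, a replicate block and leaving out each library. Only the main limma fit was run on simulated data, with the outcome not given here, and the alternatives were not. Some genes of the lists are not reported here. Promoters came from RefSeq tables on GRCm38.p6. Python 3.11.15, pandas 2.3.3, numpy 2.4.6, scipy 1.17.1 and matplotlib 3.10.9 were used for the rest.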

Additional observations from a re-analysis of the deposited data

Results flagged for a closer look

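In 11 of 209 groups of 4 libraries examined 1 library stood far from the other 3, the gap to its nearest neighbour exceeding Dixon's 95% critical share of the group's range. Chance flags about 1 group in 20, and 11 of 209 is near that rate, so no pattern is read from these values. Only the 6-week cortical-marker side was examined in this way, since E15 and E17 hold 2 libraries each. The library titled mTEC2 held 27.8 CPM of Aire (others 0 to 3.55), 15.5 CPM of Kif20a (others 3.55 to 5.14), 56.7 CPM of Klf9 (others 63.3 to 64.3) and 204 CPM of Hey1 (others 99.5 to 115). The library titled mTEC3 held 174 CPM of Dusp6 (others 32.0 to 47.9), 147 CPM of Sfrp1 (others 90.7 to 95.9), 124 CPM of Col7a1 (others 28.4 to 41.1), 895 CPM of Jund (others 347 to 362) and 41.3 CPM of Cdh5 (others 9.27 to 14.2). The library titled mTEC4 held 39.1 CPM of Gar1 (others 56.5 to 59.7) and 131 CPM of Rag1 (others 27.5 to 39.4).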

How the results depend on the processing

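Counts of higher and lower genes stayed within 1.5 times the reported 1932 and 1394 under the pseudocounts, filters, median of ratios scaling, edgeR and DESeq2. Leaving out 1 library gave 1493 to 1870 higher, 939 to 1367 lower and 2055 to 2891 kept genes. Against E17 alone 1099 were higher and 764 lower, and against E15 alone 1495 and 807; with all 20 6-week libraries 1142 were higher. The count of kept genes, 2666 as reported, was 4813 with a pseudocount of 5, 1404 against E15 alone, 1758 against E17 alone, 1544 with all 20 6-week libraries and 1448 with the other 16; edgeR and DESeq2 gave no such interval. Fewer libraries widen the interval and a larger pseudocount narrows it for low genes by construction; other causes were not tested. Libraries of equal number share only a number (correlations of their deviations -0.03 to 0.06), and with the replicate block 1450 genes were higher, 1014 lower and 2472 kept. Of 171 called named genes, 148 kept the call in all 8 fits that leave out 1 library and 23 lost it in at least 1. Most were named for a large difference or a small adjusted p, so their share does not stand for all calls. Over all tested genes there were 3326 calls as reported and 2432 without E15 library 2. Signs of named genes reversed in 48 values, every one with other 6-week libraries in place of or beside the 4 cortical-marker ones, where the difference is another comparison. These values are differences of group means, not statements about each library, and some are very small. With all 20 6-week libraries the mean difference from embryonic TEC was negative, where the 4 were higher or level, in Isl1 (-0.014), Impact (-0.032), Sgce (-0.60), H2-DMa (-0.43), Ciita (-0.18), Lamp2 (-1.58), Tgfbr2 (-0.41), Wnt4 (-1.11), Jag2 (-0.50), Lamb3 (-0.86), Col18a1 (-1.41) and Fstl1 (-0.23) log2 units. It was positive, where the 4 were lower, in Cdkn1c (0.58), Tcf7l1 (0.49), Utf1 (0.23), Spib (2.23), Il23a (1.07) and Krt17 (0.27). With the other 16 the mean difference was negative in Isl1 (-0.34), Trp63 (-3.31), Impact (-0.38), Sgce (-1.0), H2-DMa (-0.83), Ciita (-0.55), Irf1 (-0.13), Lamp2 (-1.99), Tgfbr2 (-0.91), Wnt4 (-1.62), Dll1 (-0.23), Jag2 (-0.97), Itgb4 (-0.0023), Lamb1 (-0.25), Lamb3 (-1.31), Col18a1 (-2.0), Rag1 (-0.41) and Fstl1 (-0.59). It was positive in Lpo (0.19), Aire (0.69), Cdkn1c (1.36), Bop1 (0.074), Tcf7l1 (0.81), Nrarp (0.24), Utf1 (1.22), Spib (3.26), Il23a (1.89), Krt17 (0.47), Fezf2 (3.17) and Epcam (1.01). At the shallowest depth of the 4 cortical-marker libraries, 217794 UMIs, 1 UMI is 4.59 CPM, which limits every gene under the floor of 1.46 CPM over the group.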

Other observations

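Day 6 after birth lies between the embryonic and the 6-week libraries, and the 6 day 6 libraries give levels for the genes with the largest differences. They are TEC libraries with their own mix of markers (Prss16 251 to 7398 CPM, Foxn1 47.8 to 434 CPM), so no test was made. Hmga2 was already at 0 to 1.57 CPM, and Crabp2 at 7.78 to 63.1 CPM, both below every embryonic library. H19 behaved otherwise, at 207 to 1757 CPM, with the highest day 6 library above every embryonic and every 6-week library, and its neighbour Igf2 stood at 223 to 1052 CPM, above all of them. Igf2bp2 (20.9 to 75.2 CPM), Mfap2 (23.5 to 254 CPM) and the mitotic gene Ube2c (119 to 224 CPM) were above the 4 6-week cortical-marker libraries at day 6.

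Genes that were high in the 6-week cortical-marker libraries were reached at day 6 to differing degrees. Psmb8 stood at 340.2 to 609 CPM, which overlaps its 6-week cortical-marker range. Apoe stood at 807 to 3808 CPM, and only its highest day 6 library reached the 6-week cortical-marker range, with the next at 2632 CPM. Ly6a ran from 96.4 to 1705 CPM across the 6 libraries. Nr1d1 (7.78 to 27.9 CPM), Fmod (0 to 38.9 CPM) and Prelp (0 to 44.1 CPM) were below all 4 6-week cortical-marker libraries, and Xaf1 gave no UMI in any of the 6 day 6 libraries.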
